A study of Mus musculus with 3 samples.

Results

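Voltage-gated sodium and calcium channel genes were taken from the 39377 genes of the deposited table by symbol, and 30 of them are described, from the sodium channel alpha genes (Scn followed by a number and a), the sodium channel beta genes (Scn, number, b), the calcium channel alpha1 genes (Cacna1), the alpha2delta genes (Cacna2d) and the calcium channel beta genes (Cacnb). Total RNA of whole hippocampus, a tissue of mixed cell types, was sequenced from C57BL/6 mice of wild-type genotype on postnatal day 14. The 3 libraries, here called libraries 1, 2 and 3, form 1 group with the same genotype, strain, age and tissue, so no condition was compared and the comparisons are between genes inside the same libraries. Whether each library is a different animal is not stated in the labels, so the 3 samples may be technical replicates. A p-value here reflects their scatter, pooled over all genes by the test. Where 1 gene is subtracted, its own spread enters every difference, and the pooled spread is then largely that of this gene. Such p-values and intervals treat the spread of 1 gene over 3 libraries as better known than it is.

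A voltage-gated sodium channel is built on 1 large alpha subunit that forms the pore, senses voltage and starts the action potential, with small beta subunits that adjust gating and bind other cells. A voltage-gated calcium channel likewise has an alpha1 pore subunit, with a cytoplasmic beta subunit and an extracellular alpha2delta subunit that help it to reach the membrane. The alpha1 genes fall into L-type channels (Cav1 class), which signal to the nucleus, P/Q-, N- and R-type channels (Cav2 class), which drive transmitter release, and T-type channels (Cav3 class), which open near rest. In the maturing rodent forebrain the sodium channels of the axon are known to change, with Scn3a typical of the embryo, Scn2a of early axons, and Scn8a and Scn1a of later stages.

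To show what lies before annotated starts of these genes, 250 bases upstream of each start were taken from RefSeq promoters (GRCm38.p6). These had an entry for 24 of the 30 genes. Entries were not found for Scn3a, Scn3b, Cacna1a, Cacna1g, Cacna1h and Cacna2d4. The stretches below belong to the highest calcium channel beta gene, the highest alpha2delta gene, the highest sodium channel alpha gene and the gene listed at 0 in all libraries. Where several starts were annotated, the one with the most CG pairs is shown. Each stretch shown lies within the RefSeq span of its gene, so it precedes a start inside that span and not the outer end of the gene. Each is written 5′ to 3′ on the strand of the gene, with CG pairs, the sites of DNA methylation in mammals, in capitals.
Cacnb3, chr15:98634517-98634766, plus strand: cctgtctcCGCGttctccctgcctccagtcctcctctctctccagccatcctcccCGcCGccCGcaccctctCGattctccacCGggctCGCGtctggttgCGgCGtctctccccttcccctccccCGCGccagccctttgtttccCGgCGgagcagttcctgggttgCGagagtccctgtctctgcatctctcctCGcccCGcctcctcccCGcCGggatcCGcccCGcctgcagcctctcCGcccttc
Cacna2d3, chr14:29721865-29722114, minus strand: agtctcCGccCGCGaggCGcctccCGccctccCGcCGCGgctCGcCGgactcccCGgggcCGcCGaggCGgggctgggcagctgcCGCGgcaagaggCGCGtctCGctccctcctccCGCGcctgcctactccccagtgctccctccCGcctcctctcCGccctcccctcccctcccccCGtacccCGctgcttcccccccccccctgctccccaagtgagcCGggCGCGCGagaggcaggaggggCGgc
Scn2a, chr2:65668436-65668685, plus strand: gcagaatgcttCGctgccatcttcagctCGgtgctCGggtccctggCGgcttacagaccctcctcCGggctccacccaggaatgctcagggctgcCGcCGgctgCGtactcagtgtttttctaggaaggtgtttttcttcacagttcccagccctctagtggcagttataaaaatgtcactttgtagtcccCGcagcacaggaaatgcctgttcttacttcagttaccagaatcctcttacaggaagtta
Scn10a, chr9:119719033-119719282, minus strand: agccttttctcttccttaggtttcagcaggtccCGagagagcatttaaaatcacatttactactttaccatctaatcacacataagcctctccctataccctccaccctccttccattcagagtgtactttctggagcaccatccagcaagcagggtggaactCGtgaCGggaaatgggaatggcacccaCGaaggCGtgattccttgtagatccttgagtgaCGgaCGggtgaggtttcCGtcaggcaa

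Depth was estimated at about 3710000, 4190000 and 5960000 fragments in libraries 1, 2 and 3 from the steps between low values in FPKM, the fragments per kilobase of transcript for each 1000000 mapped. For a transcript of 8 kb, as many channel transcripts are, 3 fragments corresponded to 0.104, 0.0925 and 0.0650 FPKM. These floors cover counting error only. The markers of the tissue were present: the 5 neuron markers summed to between 1322 and 1429 FPKM and the 4 astrocyte markers to between 593 and 681 FPKM. The 3 choroid plexus markers, of a tissue that adjoins the hippocampus, summed to 396, 1080 and 1306 FPKM. Nearly all of this came from Ttr, at 392, 1071 and 1296 FPKM. Folr1 was at 3.25, 7.08 and 9.16 FPKM and Kl at 0.99, 1.80 and 1.45 FPKM. In a mixed tissue, fewer cells of a type and less RNA per cell cannot be told apart.

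Of the 30 channel genes, 21 reached a mean of 1 FPKM, or 70%, against 33.9% of all rows of the table. The other 9 stood below 1 FPKM and rested on at most about 25 fragments in any library, while the 21 rested on about 67 to 1939 fragments. The median mean level of the 21 was 7.93 FPKM, against 10.5 FPKM for all 13337 genes at 1 FPKM or more. Levels on a log scale are given as log2(FPKM + 1), which understates differences of low genes. Set against the median gene of each library, 4 of the 21 were higher by more than 2-fold (limma, with up to 1 log2 unit counted as no difference, p-values adjusted by Benjamini-Hochberg over all genes), and the same call was made for 26% of all genes. These were Cacnb3, Scn3b, Cacna1a and Cacna2d3. Cacna1a and Cacna2d3 lost the call without replicate 1 (adjusted p 0.0504 and 0.0605) and without replicate 3 (0.0945 and 0.0724). Cacna1c and Cacna2d2 were lower, 2 of 21, where 22.3% of all genes were lower. Cacna1c had an adjusted p of 0.0444, which became 0.0507, 0.175 and 0.120 without replicate 1, 2 or 3. Without the filter on low values, which lowers the median gene, neither of these was called (adjusted p = 1 for both). Both shares lie below those over all genes, and the counts cover only the members that passed the filter.

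**Figure D1:**
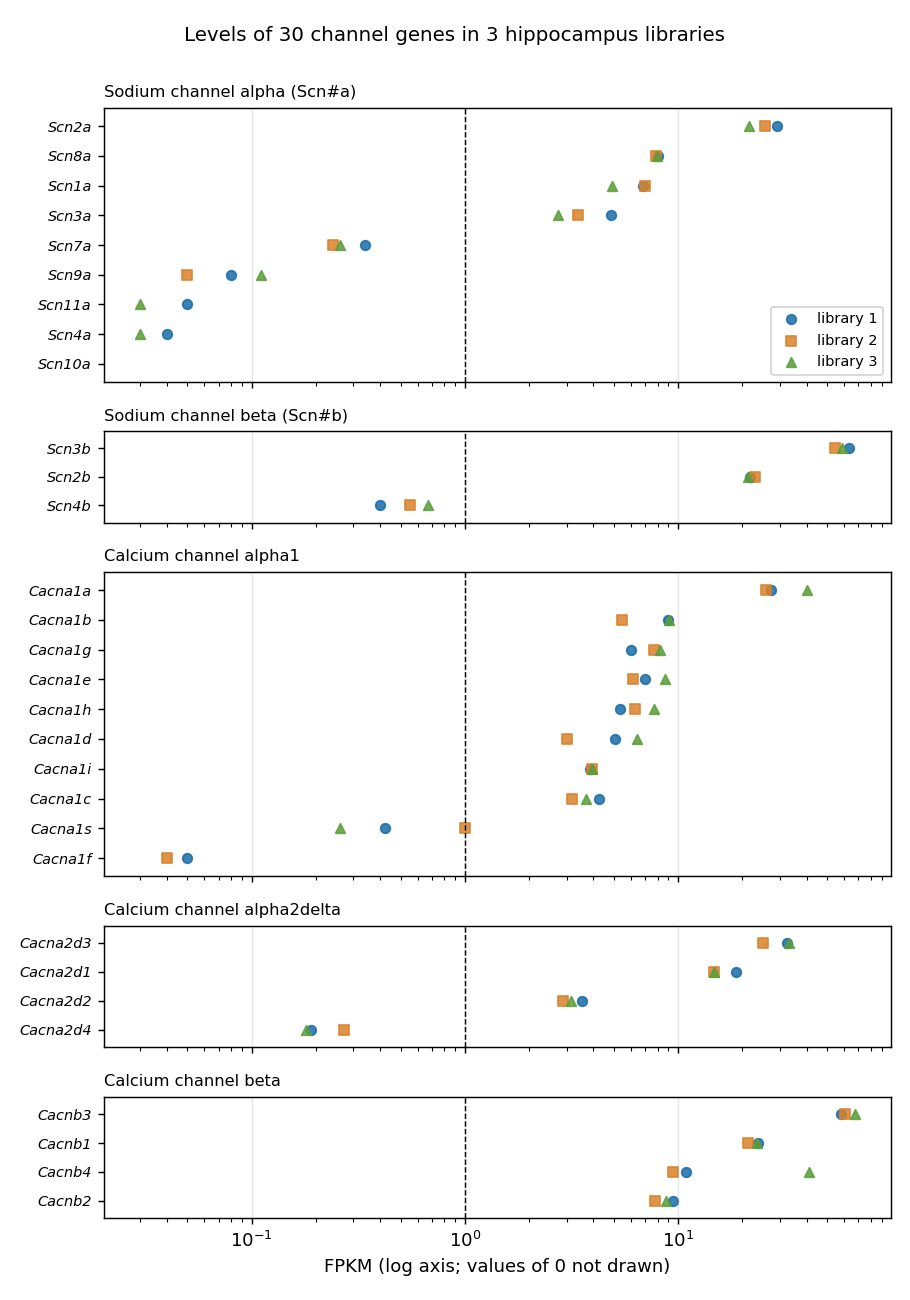
FPKM (log axis) of each of the 30 channel genes in libraries 1, 2 and 3, by subunit family, with 1 FPKM as a dashed line and values of 0 not drawn. Cacnb3 lies at 58.0 to 67.25 FPKM, 9 genes lie below the line on average, and Cacnb4 in library 3 lies apart from its other values.

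Among the sodium channel alpha genes, 4 of the 9 described reached 1 FPKM, and Scn2a was the highest. Scn2a, the channel of early axon initial segments and unmyelinated axons, had 28.9, 25.6 and 21.4 FPKM in libraries 1, 2 and 3. It carried 58.1% ± 0.850 (SD, n = 3) of the sum over these 9 genes, a share that lay between 57.2% and 58.9% in the single libraries.

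Scn8a, the channel of the mature initial segment and of nodes of Ranvier, had 8.03, 7.83 and 7.94 FPKM, with a coefficient of variation of 1.26%, the lowest among the 21 genes. Scn1a, known for its role in fast-spiking inhibitory neurons, had 6.81, 6.99 and 4.91 FPKM. Scn3a, the channel typical of the embryonic brain, had 4.83, 3.38 and 2.74 FPKM. The order Scn2a, Scn8a, Scn1a, Scn3a had no overlap between the ranges of neighbours, although the lowest value of Scn1a (4.91) lay close to the highest of Scn3a (4.83). These 3 genes carried 18.4% ± 2.50, 14.3% ± 1.42 and 8.28% ± 1.36 of that sum.

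Against Scn2a, all 3 were lower by more than 2-fold on the log2(FPKM + 1) scale, where 46.6% of all genes were lower and 11.4% higher. Since Scn2a was the highest alpha gene in every library, the direction was given and the test bears only on the size. The difference was -1.55 for Scn8a (SE 0.189, adjusted p = 0.00602, lower in 3 of 3 libraries; limma). For Scn1a it was -1.87 (SE 0.187, adjusted p = 5.80e-05) and for Scn3a -2.51 (SE 0.188, adjusted p = 3.18e-09). The call of Scn8a was lost without replicate 1 (adjusted p = 0.0730) and without replicate 2 (0.0928). Transcript length, GC content and mappability also set FPKM apart between genes, which is why the null allowed 2-fold, and the spread of the gene subtracted enters every difference made with it.

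The other 5 were low. Scn7a, which encodes a sodium-level sensor rather than a voltage-gated pore, had 0.34, 0.24 and 0.26 FPKM, about 9, 7 and 11 fragments. Scn9a, the channel of peripheral sensory and sympathetic neurons, had 0.08, 0.05 and 0.11 FPKM. Scn11a, another sensory neuron channel, was listed at 0.05, 0 and 0.03 FPKM, and Scn4a, the skeletal muscle channel, at 0.04, 0 and 0.03 FPKM, or about 1 fragment where above 0. Scn10a, also of sensory neurons, was listed at 0 in all 3 libraries. From Scn9a down, the ranges of neighbours in the order overlapped, and this depth did not resolve their order. The 4 sensory ganglion markers summed to 0.65, 0.09 and 0.33 FPKM. The 5 skeletal muscle markers summed to 6.85, 7.43 and 7.61 FPKM, most of it from Acta1 at 5.21, 6.79 and 5.36 FPKM and Mylpf at 1.37, 0.60 and 2.19 FPKM, while Ckm was listed at 0 in all libraries.

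The sodium channel alpha genes lie mostly in clusters. Scn3a, Scn2a, Scn1a, Scn9a and Scn7a share a stretch of chromosome 2 (GRCm38, 65457118 to 66784910), which carried 81.4% ± 2.51 of the sum although Scn9a and Scn7a within it stood below 0.4 FPKM in every library. Scn10a and Scn11a share a stretch of chromosome 9 (119608456 to 119825456), and their highest value in any library was 0.05 FPKM. Scn8a lies apart on chromosome 15 (100869863 to 101045938). Membership of a cluster thus went with both high and low levels on chromosome 2 and with low levels on chromosome 9.

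**Figure D2:**
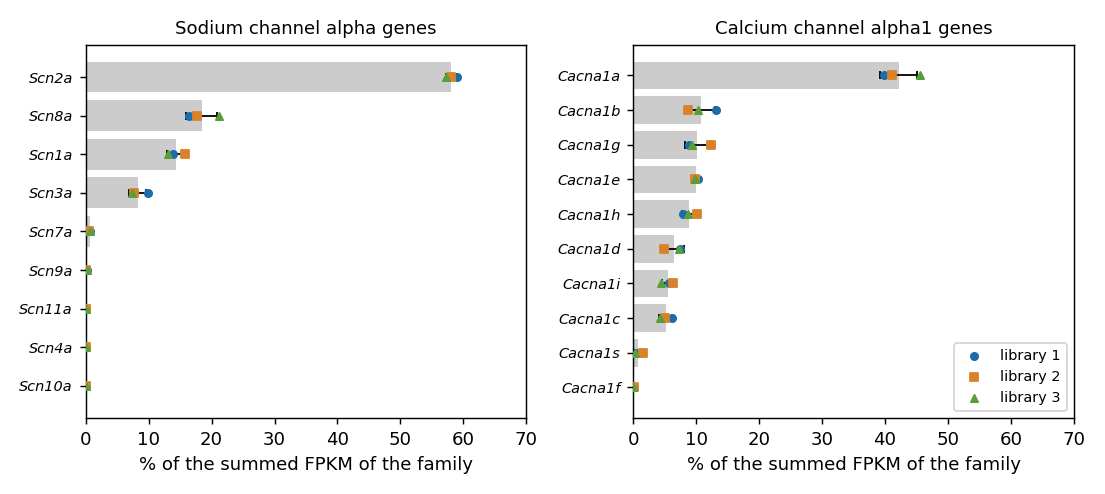
Share of each gene in the summed FPKM of its group, for 9 sodium channel alpha genes and 10 calcium channel alpha1 genes. Grey bars are means, black lines the SD over 3 libraries and symbols the single libraries. Scn2a holds 58.1% and Cacna1a 42.2% on average.

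Of the sodium channel beta genes, Scn3b, whose product binds the alpha subunit without a covalent bond, had 63.4, 54.1 and 58.5 FPKM. Scn2b, whose product is joined to the alpha subunit by a disulphide bond, had 21.8, 22.8 and 21.3 FPKM, with a coefficient of variation of 3.63%. Scn4b, the subunit linked with resurgent sodium current in neurons such as cerebellar Purkinje cells, had 0.40, 0.55 and 0.67 FPKM, about 7, 11 and 19 fragments. None of these 3 ranges overlapped.

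Scn3b was 2.68 ± 0.277 times Scn2b in FPKM (SD, n = 3), with single values of 2.91, 2.37 and 2.75. In every library Scn3b also lay above Scn2a, the highest alpha gene, while the values of Scn2b and Scn2a overlapped. Scn2b and Scn4b are neighbours on chromosome 9 (45117876 to 45154155), and all values of Scn2b lay above all values of Scn4b.

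Among the calcium channel alpha1 genes, 8 of 10 reached 1 FPKM and Cacna1a stood alone at the top. Cacna1a, the P/Q-type pore gene of fast transmitter release, had 27.2, 25.7 and 40.1 FPKM and carried 42.2% ± 2.94 of the family sum. Its value in library 3 was 1.47 times the next highest. Cacna1b, the N-type pore gene, had 8.93, 5.44 and 9.06 FPKM, and Cacna1e, the R-type pore gene, 7.02, 6.16 and 8.67 FPKM. With these 3 genes, the Cav2 class made up 62.9% ± 3.0 of the family sum.

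The T-type genes made up 24.5% ± 3.63 of the sum. Cacna1g had 6.01, 7.70 and 8.21 FPKM, Cacna1h 5.35, 6.30 and 7.70 FPKM, and Cacna1i 3.86, 3.94 and 3.96 FPKM. The ranges of Cacna1g and Cacna1h overlapped, although Cacna1h lay below Cacna1g in 3 of 3 libraries, and Cacna1i lay below both in every library. Cacna1h minus Cacna1g was -0.16 log2 units (95% interval -0.55 to 0.23) and Cacna1i minus Cacna1g -0.75 (-1.14 to -0.35), and neither was called beyond 2-fold (adjusted p = 1 for both; limma), where 13.3% of all genes were lower than Cacna1g and 31.2% higher. Against a null of no difference, Cacna1i was lower than Cacna1g (adjusted p = 0.000507), and the part of length, GC content and mappability in that difference was not tested.

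The L-type genes made up 12.6% ± 1.53 of the sum. Cacna1d, which activates at lower voltages than Cacna1c, had 5.07, 3.02 and 6.44 FPKM, and Cacna1c, the L-type gene of brain, heart and smooth muscle, 4.24, 3.18 and 3.70 FPKM. Cacna1d was higher in libraries 1 and 3 but not in library 2, and the difference of 0.27 log2 units (95% interval -0.12 to 0.67, adjusted p = 1; limma) was not called, where 47.9% of all genes were higher than Cacna1c by more than 2-fold. Cacna1s, the voltage sensor of skeletal muscle, had 0.42, 1.0 and 0.26 FPKM, about 9, 25 and 9 fragments. The skeletal muscle markers, given above, were lowest in sum in library 1. Of these, Acta1 was highest and Mylpf lowest in library 2, where Cacna1s was highest. The 5 heart muscle markers summed to 2.50, 7.23 and 2.14 FPKM. Among them Myl2 and Tnnt2 were highest in library 2, Nppa was lowest there, and Myh6 and Tnni3 were listed at 0 in all libraries. The part of muscle RNA in the value of Cacna1s was not tested. Cacna1f, the retinal L-type gene, was listed at 0.05, 0.04 and 0 FPKM, and the photoreceptor marker Crx at 0 in all libraries.

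All 7 alpha1 genes tested against Cacna1a were lower by more than 2-fold, 7 of 7, where 48.9% of all genes were lower and 8.25% higher. As Cacna1a was the highest of its family in every library, the direction was given and the test bears only on the size. The log2 differences went from -1.86 for Cacna1b (SE 0.281, adjusted p = 0.00220) to -2.74 for Cacna1c (SE 0.281, adjusted p = 9.71e-10, limma, lower in 3 of 3 libraries). All 7 had the same SE, since the pooled spread was mostly that of Cacna1a and was taken as known exactly. The small p-values rest on that. Without replicate 3, the limma adjusted p for Cacna1c was 0.000428. From Cacna1b to Cacna1c, each neighbour in the order overlapped with the next, so the order of neighbours below Cacna1a was not resolved by their ranges. Cacna1i and Cacna1c did lie wholly below Cacna1b, Cacna1g, Cacna1e and Cacna1h, while the range of Cacna1d overlapped all of these.

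**Figure D3:**
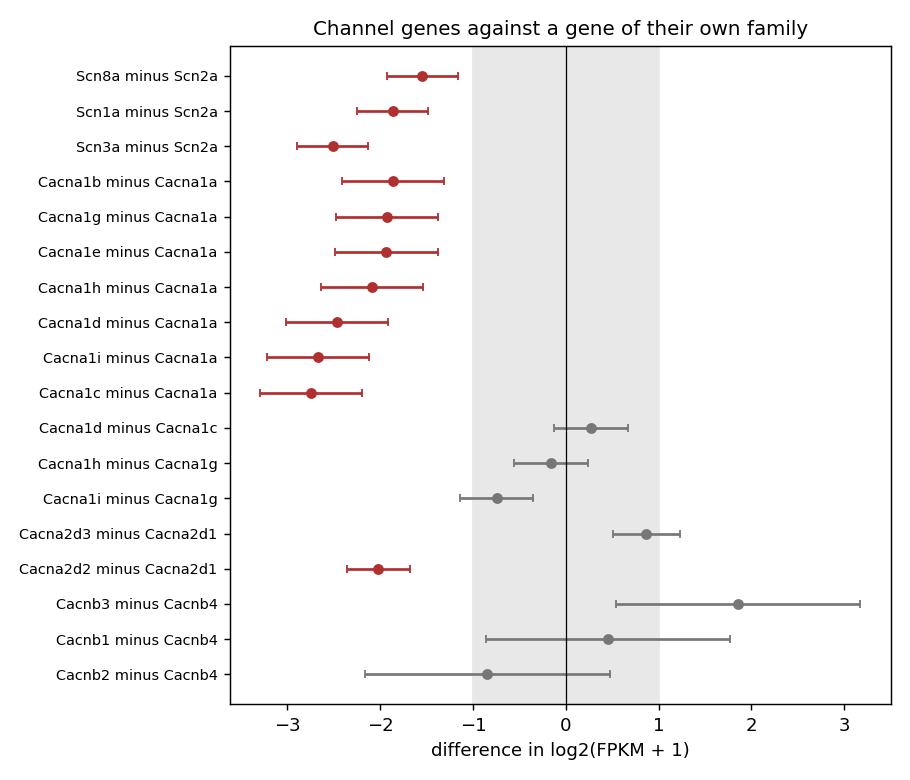
Difference in log2(FPKM + 1) between each channel gene and a gene of its own family, with 95% intervals from limma over 3 libraries. Red marks differences called beyond 2-fold, grey those not called, and the shaded band is the 2-fold null. The intervals against Cacnb4 are the widest, with an SE of 0.673. Differences from Cacnb4 all share that SE, and those from Cacna1a also share a single SE, set mostly by the gene subtracted.

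Of the alpha2delta genes, 3 of 4 reached 1 FPKM. Cacna2d3 had 32.4, 24.95 and 33.1 FPKM, and Cacna2d1, whose product binds gabapentin, 18.6, 14.8 and 14.7 FPKM. Cacna2d2, the other gabapentin-binding member, had 3.53, 2.88 and 3.15 FPKM, and Cacna2d4, the retinal member, 0.19, 0.27 and 0.18 FPKM, about 4, 6 and 6 fragments. None of the ranges of neighbours overlapped. Cacna2d3, Cacna2d1 and Cacna2d2 carried 60.7% ± 3.52, 32.4% ± 3.16 and 6.44% ± 0.282 of the sum.

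Cacna2d2 was lower than Cacna2d1 by 2.02 log2 units (difference -2.02, SE 0.152, adjusted p = 9.63e-05; limma, lower in 3 of 3 libraries), as were 33.7% of all genes by more than 2-fold. Cacna2d3 minus Cacna2d1 was 0.87 log2 units (95% interval 0.51 to 1.23, higher in 3 of 3 libraries), which was not beyond 2-fold (adjusted p = 1), a call made for 17.6% of all genes. Against a null of no difference it passed (adjusted p = 0.000442).

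All 4 calcium channel beta genes reached 1 FPKM. Cacnb3, a subunit of neuronal N- and L-type channels, had 58.0, 60.5 and 67.25 FPKM, above the other 3 genes in every library. Cacnb1, also the beta subunit of skeletal muscle, had 23.5, 21.3 and 23.5 FPKM, and Cacnb2, prominent in heart, 9.50, 7.75 and 8.75 FPKM. Cacnb4, whose loss causes the epileptic phenotype of the lethargic mouse, had 10.8, 9.50 and 40.85 FPKM. It stood close to Cacnb2 in libraries 1 and 2 and above Cacnb1 in library 3.

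The value of Cacnb4 in library 3 was 3.77 times the next highest, with a coefficient of variation of 86.9% against a median of 14.9% for the 21 genes and 13.8% for all genes at 1 FPKM or more. Among the 9202 genes at a mean of 5 FPKM or more, 22 (0.239%) had a highest library that stood as far or further above the next. About 320, 317 and 1939 fragments were estimated behind the 3 values. An antisense gene that shares exon sequence with Cacnb4, A430018G15Rik, was at 1.37, 1.04 and 0.42 FPKM, lowest in library 3. The cerebellar markers Pcp2 (5.74, 1.10 and 0 FPKM) and Gabra6 (0.12, 0.18 and 0 FPKM) were listed at 0 in library 3, while the third marker of that list, Calb1, which hippocampal neurons also express, was at 43.9, 44.9 and 45.7 FPKM. The part of cerebellar RNA in the value of Cacnb4 was not tested. Cacnb4 has 4 coding transcripts in GENCODE, and how the authors assigned reads and lengths to them is not given in the sources used here.

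Against Cacnb4, none of the 3 other beta genes was called beyond 2-fold, where 11.6% of all genes were lower and 7.17% higher. At an unadjusted p under 0.05 the count was also 0, and with a null of no difference limma called 1, Cacnb3 (adjusted p = 0.0154). Cacnb3 minus Cacnb4 was 1.86 log2 units (SE 0.673, adjusted p = 0.271), and without replicate 3 it was 2.43 (adjusted p = 0.00128) and called. Cacnb1 minus Cacnb4 was 0.46 (95% interval -0.86 to 1.77) and Cacnb2 minus Cacnb4 -0.85 (-2.16 to 0.47). The share of Cacnb4 in the sum of the 4 genes was 10.6%, 9.59% and 29.1%, and that of Cacnb3 56.9%, 61.1% and 47.9%.

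Summed over families, the calcium channel beta genes stood at 1.49, 1.59 and 1.59 times the alpha1 genes, and without Cacnb4 at 1.34, 1.43 and 1.13 times. The alpha2delta genes stood at 0.803, 0.687 and 0.581 times the alpha1 genes. The 9 sodium channel alpha genes summed to 49.1, 44.1 and 37.4 FPKM and the calcium channel alpha1 genes to 68.2, 62.5 and 88.1 FPKM, a ratio of 0.720, 0.706 and 0.425. Scn2a, Scn1a and Scn3a were all lowest in library 3, but Scn8a was not, at 8.03, 7.83 and 7.94 FPKM. Of the alpha1 genes at a mean of 1 FPKM or more, all but Cacna1c were highest in library 3. Cacna1i was so only narrowly, at 3.86, 3.94 and 3.96 FPKM. The neuron markers summed to 1429, 1342 and 1322 FPKM, but their members went different ways, with Snap25 at 841, 792 and 709 FPKM and Slc17a7 at 448, 415 and 492 FPKM. The 4 hippocampal neuron markers summed to 168, 134 and 141 FPKM, and of these Wfs1, at 13.9, 14.5 and 23.7 FPKM, was highest in library 3. Prox1 (11.5, 9.63 and 8.56 FPKM) and Zbtb20 (7.38, 6.24 and 5.11 FPKM) were lowest there. Neurod6, at 135, 103 and 104 FPKM, was highest in library 1. Library 3 also had the greatest depth and the smallest FPKM sum over all genes (743038, 820068 and 637844 in libraries 1, 2 and 3). Relative to these sums, Scn2a, Scn3a, Prox1 and Zbtb20 were lowest in library 2, and Scn1a was still lowest in library 3. The ratios between families do not depend on these sums. The part of depth and of these cell types in the pattern was not tested.

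Over the 21 genes, 9, 2 and 10 had their highest value in library 1, 2 and 3, against 36.5%, 32.6% and 30.9% of all genes. The median deviation from the mean of each gene was 0.10, -0.10 and 0.02 log2 units, against 0.01, -0.0007 and -0.0064 over all genes and 0.04, -0.01 and -0.03 over the 1778 genes with transcripts of 6000 bases or more. As a group the channel genes thus stood lowest in library 2, and Cacnb4 was the member with the widest deviation.

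**Figure D4:**
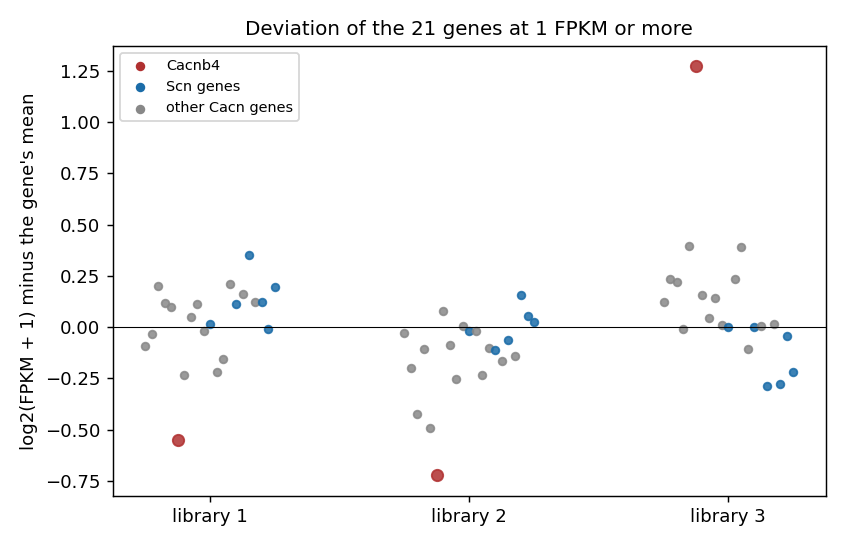
Deviation of log2(FPKM + 1) from the mean of each gene in libraries 1, 2 and 3, for the 21 channel genes at 1 FPKM or more. Each point is 1 gene in 1 library. Cacnb4 (red) stands apart in library 3.

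Genes known to work with these channels were placed against the median gene in the same way, where 26% of all genes were higher and 22.3% lower by more than 2-fold. Of the partners of sodium channels, 10 of 16 were higher and 0 lower, also 0 at an unadjusted p under 0.05 (limma). They included the calmodulin genes Calm2 and Calm3 at 2456 ± 138 and 935 ± 43.6 FPKM, Ank2, which encodes a membrane scaffold, at 89.5 ± 8.85 FPKM, and Fgf13, an intracellular partner of the alpha subunit, at 253 ± 5.78 FPKM. Fgf12 stood at 56.4 ± 8.51 FPKM, while Fgf14 and Fgf11 were at 7.53 ± 0.387 and 6.46 ± 0.780 FPKM and were not called. Of the partners of calcium channels, 6 of 17 were higher and 2 lower, and besides these calmodulin genes Camk2a, a calcium-dependent kinase, stood at 820 ± 91.1 FPKM and Stx1a, a protein of vesicle fusion, at 89.5 ± 5.35 FPKM.

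Of the gamma subunit genes, most of which encode regulators of AMPA-type glutamate receptors in brain, 2 of 6 tested were higher, Cacng7 at 52.8 ± 4.30 and Cacng8 at 48.0 ± 8.79 FPKM. Cacng4 and Cacng3 stood at 19.9 ± 0.991 and 11.9 ± 2.75 FPKM, and Cacng1, the muscle gamma subunit, was listed at 0, 0 and 0.17 FPKM. The genes of the sodium leak channel, which sets the resting potential, were Nalcn at 11.4 ± 2.18, Unc80 at 8.18 ± 0.880 and Unc79 at 3.03 ± 0.505 FPKM, of which Unc79 was lower than the median gene. Of the transcriptional regulators, 0 of 5 tested were higher and 1, Rcor1, was lower, while Rest, a repressor of neuronal genes in other cells, stood at 0.88, 0.95 and 1.14 FPKM. At an unadjusted p under 0.05 in the same limma test, 0 of these 5 were higher as well.

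Before annotated starts of the channel genes, the number of CG pairs in 250 bases was counted, taking the start with the most pairs for each gene. The 16 genes at 1 FPKM or more with an entry had a median of 29.5 CG pairs (range 1 to 50), the 8 genes below 1 FPKM a median of 4.5 (range 3 to 23), and all 27025 genes with an entry a median of 6. At least 10 pairs were found for 12 of the 16 and 1 of the 8, against 40.2% of all genes. That share covers genes at any level, and genes at 1 FPKM or more were not counted apart. Taking the highest start also favours genes with several starts, of which there were 34 for the 24 channel genes and 32851 for all 27025 genes. The gene below 1 FPKM with many pairs was Scn4b, with 23. Scn2b with 1, Scn1a with 4, Cacna1e with 6 and Scn2a with 9 were the genes at 1 FPKM or more under 10 pairs. The counts describe the letters in these windows only, since methylation was not measured.

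**Figure D5:**
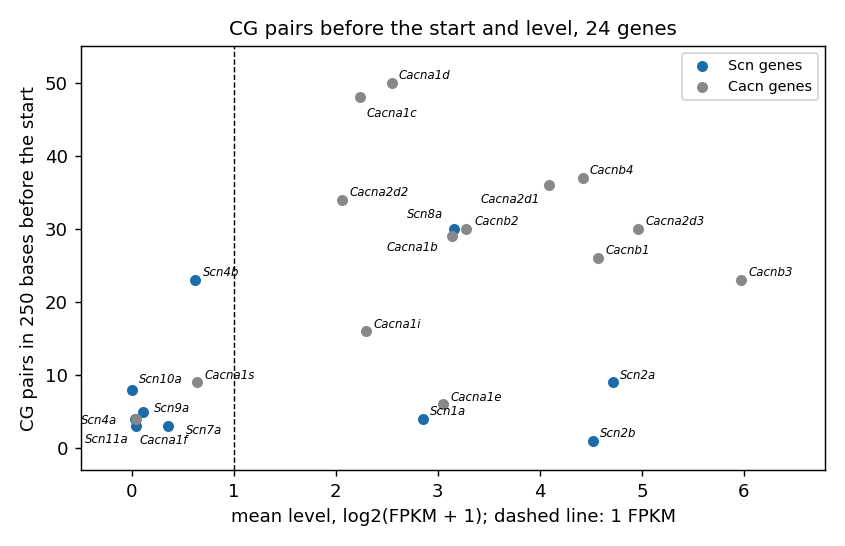
CG pairs in 250 bases before the annotated start (the start with the most pairs) against the mean level in log2(FPKM + 1), for the 24 channel genes with a RefSeq promoter entry. The dashed line marks 1 FPKM. Scn2a and Scn2b combine levels above 20 FPKM with 9 and 1 CG pairs.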

How the data were processed

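The authors deposited FPKM values in 1 table, whose headers number the 3 libraries as the sample titles do, and this number linked columns to samples. Libraries were sequenced as paired reads of 150 bases, per the labels' protocols, and the submitters' processing notes name Bowtie2 and GRCm38 (mm10). The sources used here give no counting tool, annotation, strand setting or treatment of shared reads, so paralogs and the 9 channel genes whose exons overlap an opposite-strand gene (Cacna1a, Cacna1d, Cacna1h, Cacna1s, Cacna2d2, Cacnb1, Cacnb2, Cacnb4 and Scn9a) are uncertain to that extent.

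FPKM were used as deposited. Fragment numbers are estimates. For genes with 1 GENCODE M21 transcript of at least 800 bases, depth and 260 bases taken off the length were chosen so that low values came out as whole fragments, and 93.7%, 92.7% and 91.1% of values then lay within 0.15 of a whole number. Both settings were fitted on these values. For channel genes the longest coding transcript was used.

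Differences of log2(FPKM + 1) were tested in each comparison over all genes with a mean of at least 1 FPKM (13336 besides the gene subtracted) with limma 3.58.1 in R 4.3.3 (treat, two-sided, null of at most 1 log2 unit, calls at Benjamini-Hochberg adjusted p under 0.05). Values after ± are SDs over 3 libraries. The test was checked on simulated data in which all genes had a single spread and unchanged genes had no difference. Its behaviour at the 2-fold limit and with unequal spreads was not tried. RefSeq of GRCm38.p6 gave coordinates and promoters, whose direction was checked against transcripts (29 of 34 starts matched). The symbols took 32 channel genes, of which 2 are not reported here, nor are the comparison with 1 of them and 1 partner gene; no sum, share or count of channel genes holds them. The other 30 are named, and of most partner lists up to 4 of the highest members with some others. Of the transcriptional regulators only Rcor1 and Rest are named, and the 2 lower calcium channel partners are not named. Fam155a and Fam155b were not analysed here. Members, lists and the genes subtracted were chosen with earlier results of these data known, and Fgf11, Fgf12, Fgf14, Cacng1 and Rest were named after their values were seen. Python 3.11.15 was used. Alternatives were another pseudocount, no low-value filter, a null of no difference, rescaling, and leaving out each library.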

Additional observations from a re-analysis of the deposited data

How the results depend on the processing

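No paired analysis was possible because the samples form 1 group. Of the 39 differences between a channel gene and the gene or median subtracted, 37 kept their direction and their side of the threshold with a pseudocount of 0.1, and 24 with a null of no difference, where 15 more passed. Without 1 library 34 to 37 did. Without the low-value filter 25 did, since the median gene then stood lower. There 8 uncalled differences from the median gene changed sign, to 0.64 for Cacna1b, 0.58 for Cacna1g, 0.57 for Cacna1e, 0.42 for Cacna1h, 0.036 for Cacna1d, 0.80 for Cacnb2, 0.69 for Scn8a and 0.38 for Scn1a, none of them called. Cacnb4 minus the median gene, also uncalled, lay between -0.031 and 0.96 without 1 library, the lower end without library 3.

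Counts that moved by more than 1.5 times are given beside the main ones. Without the filter, 7 alpha genes were lower than Scn2a in place of 3, 2 L-type genes lower than Cacna1c in place of 0, 2 alpha2delta genes lower than Cacna2d1 in place of 1, and 8 channel genes each lower and higher than the median gene in place of 2 and 4, since low genes entered the test and lowered that median. The genes of the whole table lower than Scn2a, Cacna1a, Cacna1c, Cacna1g, Cacna2d1 and Cacnb4 then numbered 11852, 12320, 5347, 7461, 10262 and 7892, in place of 6219, 6520, 0, 1778, 4498 and 1542, and those lower and higher than the median gene 6032 and 5955 in place of 2977 and 3474.

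With a null of no difference, 1 T-type gene was lower than Cacna1g, 1 alpha2delta gene higher than Cacna2d1 and 1 beta gene higher than Cacnb4, in place of 0 each, and 10 channel genes were lower and 8 higher than the median gene. Over the whole table, 2207, 4309, 7223 and 4217 genes were then lower than Cacna1c, Cacna1g, Cacna2d1 and Cacnb4. Higher than Scn2a, Cacna1a, Cacna1g, Cacna2d1 and Cacnb4 were 2875, 2207, 6757, 4125 and 2090, in place of 1520, 1100, 4155, 2349 and 956, and lower and higher than the median gene 5739 and 5757. With a pseudocount of 0.1, 4 channel genes were lower than the median gene, and 438 genes of the table were lower than Cacna1c. At an unadjusted p under 0.05, limma had 0 genes lower than Cacna1c in the main setting. A gene that just passed the filter on low values lay only a little more than 1 log2 unit below Cacna1c, so these settings left that count almost no room.

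Without 1 library, channel genes lower than the median gene numbered 1 to 2 and those higher 2 to 4, and genes of the table lower than Cacna1g 970 to 1917. Against Cacnb4, 0 to 1 beta genes were higher, and 0 to 2517 and 285 to 3211 genes of the table lower and higher, the upper end of each without library 3, where Cacnb4 stood apart. Rescaling each library to a sum of 1000000 moved the median of all genes to -0.01, -0.15 and 0.17 log2 units in libraries 1, 2 and 3, and that of the channel genes to -0.25 in library 2 and 0.20 in library 3. Relative to all genes, the channel genes were still lowest in library 2. Genes below about 0.1 FPKM rest on 1 to 6 fragments, and their order cannot be read at this depth.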
